A study of Mus musculus with 7 samples.

Results

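The genes of mitochondrial protein import were followed in the mammary glands of PRA transgenic mice and their wild-type controls. The import genes were taken by gene symbol. They were all probes named Timm or Tomm with a number, together with those of Timmdc1, Hspa9, Hspd1, Hspe1, Pmpca, Pmpcb, Grpel1, Grpel2, Dnajc19, Pam16, Chchd4, Gfer, Samm50, Mtx1 and Mtx2. This gave 40 of the 37074 gene names on the array, held by 79 of its 56605 probes. Both groups were nulliparous adult FVB females of 20 to 25 weeks, killed at diestrus, and from each animal the RNA of a single frozen abdominal gland was used after its lymph nodes had been cut out. The 3 wild-type animals carried no transgene. The 4 PRA transgenic animals carried both parts of a binary transgene, a CMV promoter driving the GAL-4 transactivator and a UAS-controlled PR-A, so that an additional A form of the progesterone receptor was made and its expression was not limited by a mammary promoter; the labels call these glands preneoplastic. Each array carried 1 animal's gland in Cy5 and a Universal Mouse Reference RNA, pooled from 11 cell lines, in Cy3. The values below are log2 ratios of gland to reference, and the comparison is PRA transgenic against wild-type.

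Nearly all mitochondrial proteins are coded in the nucleus, made in the cytosol and imported. They enter through the TOM channel of the outer membrane. Barrel proteins are then inserted by the SAM complex, small cysteine-rich proteins are folded in the intermembrane space by Chchd4 (MIA40) and Gfer, and carrier proteins are escorted by small TIM chaperones, among them the Timm9-Timm10 complex, to the TIM22 translocase. Proteins with a presequence pass the TIM23 translocase, are pulled in by a motor built on Hspa9 (mortalin), lose the presequence to the Pmpca-Pmpcb peptidase and are folded with the help of the Hspd1-Hspe1 chaperonin. Fat cells and epithelium both contribute mitochondria to a whole mammary gland, and in such bulk RNA fewer cells of a type and less RNA per cell cannot be told apart.

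The probes on which the comparison turns are shown first, because probes of the same gene did not always read alike. Timm9 had 5 probes on the minus strand of mm9 chromosome 12. The first pair listed here, at chr12:72236700-72236759 and chr12:72236621-72236680, came from cDNA sequences at the 5′ side of the group, of which the annotation describes 1 as having an apparent retained intron. The last of the 3, at chr12:72226471-72226530, lies in the RefSeq mRNA.
Timm9 A_52_P182520: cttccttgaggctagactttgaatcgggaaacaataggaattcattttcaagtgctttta
Timm9 A_55_P2935865: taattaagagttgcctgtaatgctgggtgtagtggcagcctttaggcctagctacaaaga
Timm9 A_51_P421804: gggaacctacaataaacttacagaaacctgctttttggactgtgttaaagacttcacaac

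The next probes are shown for the largest difference, for the gene that was lower at the unadjusted threshold and for a probe with no position. The Timmdc1 probe joins blocks within chr16:38508941-38510812 (mm9, minus strand), the Mtx2 probe joins blocks within chr2:74708517-74714394 (mm9, plus strand), and the Tomm20l probe, designed on an expressed sequence tag, is listed as unmapped. The Timmdc1 probe that was brightest in the gland is given by its first 30 bases, in capitals, because stretches of 20 bases covering all 60 of its bases also occur in the promoter windows of 52 other genes.
Timmdc1 A_55_P2429714: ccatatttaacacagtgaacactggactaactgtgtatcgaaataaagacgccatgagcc
Mtx2 A_52_P86158: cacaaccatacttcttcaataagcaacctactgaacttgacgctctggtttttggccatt
Tomm20l A_55_P2407751: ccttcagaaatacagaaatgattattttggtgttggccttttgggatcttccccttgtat
Timmdc1 A_55_P2039463, bases 1 to 30: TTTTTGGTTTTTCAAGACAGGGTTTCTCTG

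Of the 79 probes, 71 had a usable signal, meaning that the gland channel passed the scanner software's background test throughout a genotype, and all 71 met this in both genotypes. They represented 39 of the 40 gene names. Timm8a2 had no such probe. The other 7 probes left out belonged to genes with another usable probe: Timm9, Timm10b, Tomm20l, Tomm6, Tomm70a, Mtx2 and Timm22. Tomm6os also entered through its symbol. It is a noncoding transcript on the strand opposite Tomm6 and is not an import component.

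The means of the luminal and basal epithelial marker lists were above the reference on every array, at log2 ratios of 3.16 to 3.69 and of 2.62 to 3.07; of single markers, Krt8 was below it in wild-type replicate 2 and PRA transgenic replicates 1 and 3, and Trp63 in wild-type replicate 3 and PRA transgenic replicates 2 and 3. The brightest probe of Pgr, the progesterone receptor gene, read 7.05, 4.30 and 4.04 in the wild-type glands and 5.38, 4.72, 4.49 and 3.32 in PRA transgenics, so the groups overlapped (log2 fold change -0.65 ± 0.80 (SE), adjusted p = 0.858, limma). It does not show the transgene. The share of probes with Cy5 well above background was 62.6 to 66.1% in wild-type and 56.6 to 60.2% in PRA transgenics. For Cy3, which held reference RNA on every array, it was 53.2 to 54.0% and 47.2 to 50.6%. The gap was thus not limited to the gland channel. All arrays lay on 1 slide, wild-type in row 1 and PRA transgenics in row 2, so the row on the slide cannot be told apart from genotype. PRA transgenic replicate 4 stood apart in the import genes, and the results are given with and without it. It was singled out for its low values in these same genes, so leaving it out raises the import values by construction, and the values without it are a description and not separate support.

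Most import genes had a small positive log2 fold change, but the PRA transgenic glands did not all lie higher. The mean import log2 ratio was -0.09, -0.11 and -0.03 in wild-type and 0.15, 0.01, 0.18 and -0.28 in PRA transgenic replicates 1 to 4. The genes were read in the same few animals, so the counts of genes and probes are a description and genes are not replicates. With the brightest probe standing for each gene, 30 of 39 genes (76.9%) had a positive log2 fold change, against 52.7% of the 22499 genes tested, and of the 71 probes 57 were positive (80.3%), against 54.2% of all probes. The 39 include the noncoding Tomm6os, which was negative. They also include Timmdc1, positive at 0.17 by a brightest probe whose signal cannot be assigned to that gene. The median was 0.10 over the import genes and 0.01 over all genes, and among import components single genes ran from -0.46 (Mtx2) to 0.76 (Tomm20l). In Cy5 alone, without the reference, the median was 0.13 and 30 genes were positive, while the Cy3 reference signal itself differed by a median of 0.02. At the level of single probes, 5 of 71 (7.04%) reached an unadjusted P under 0.05 in limma, against 9.02% of all 34284 probes tested, so the share was no larger than the background. No import probe had an adjusted p under 0.05 (0.0117% of all probes did). The 4 probes that were higher at the unadjusted threshold belonged to Timm9, Timm50 and Tomm20l, and the 1 that was lower belonged to Mtx2. The corresponding background was 4.54% higher and 4.48% lower. The genotypes did not overlap at 8 import probes (11.3%), 7 of them higher in PRA transgenics and 1 lower, against 9.95% of all probes in either direction, 5.42% higher and 4.53% lower. The higher ones included the Timm9 cDNA probes and both Timm50 probes, so they were not all separate genes. At Timm10b A_55_P2166685 the reference was well above background on 0 PRA transgenic arrays, and Cy5 alone gave -0.02. At the Tomm20l probe the reference was well above background on 1 PRA transgenic array.

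Without PRA transgenic replicate 4 the count rose to 18 of 71 probes (25.4%) at the unadjusted threshold, against 12.3% of all probes, as the choice of the array left out makes likely. Of these, 15 were higher and 3 lower, where 6.92% and 5.43% of all probes were. One import probe, Timmdc1 A_55_P2429714, then had an adjusted p under 0.05, against 0.035% of all probes. The genotypes no longer overlapped at 30 probes, 27 of them higher, against 19.6% of all probes in either direction and 11.5% higher. By gene, 34 of 39 were positive with a median of 0.20, and 9 (23.1%) reached the unadjusted threshold, against 11.3% of all genes. The 7 higher ones were Tomm20l, Chchd4, Timm10, Timm9, Pmpca, Hspe1 and Timm50, and the 2 lower ones were Mtx2 and Tomm6os, the latter with a reference signal at background. With the replicate number as a block, 14 of 71 probes passed (9.83% of all probes). Leaving out wild-type replicate 2 or 3 lowered the full count to 3, where 7.35% and 7.48% of all probes passed. The gene median of 0.10 was 0.06 without wild-type replicate 1, 0.05 without PRA transgenic replicate 1 and 0.04 without PRA transgenic replicate 3. In the full set without a block 2 of the 39 (5.13%) did so, against 7.95% of all genes.

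**Figure D1:**
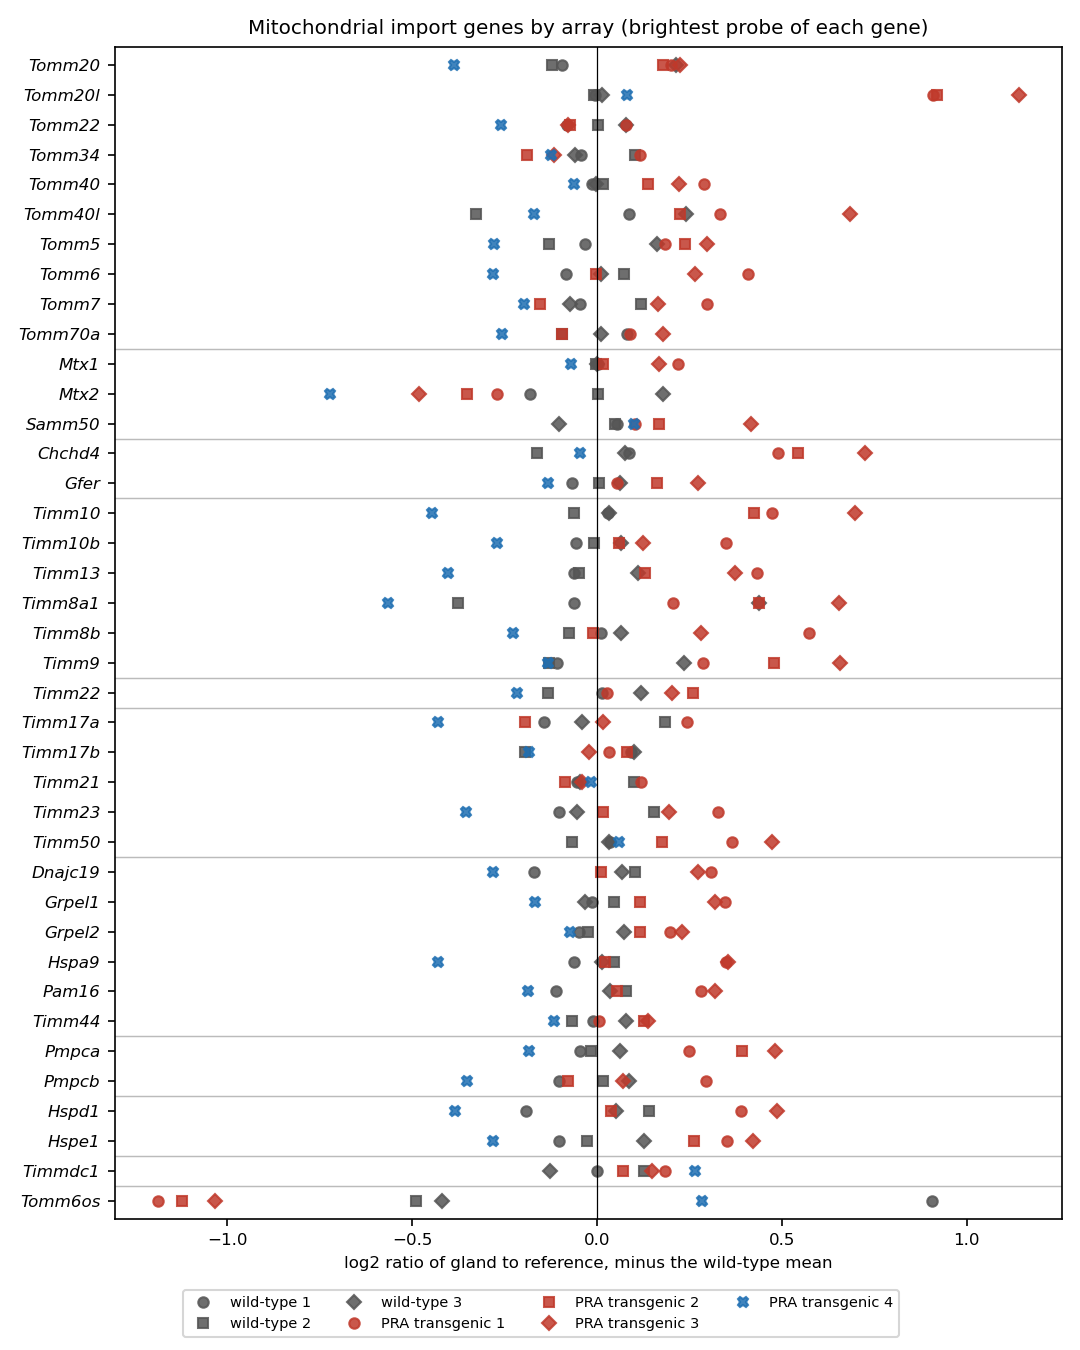
Log2 ratio of gland to reference minus the wild-type mean (x axis) for the brightest probe of each of the 39 import genes (rows, grouped by role between the grey lines); each symbol is 1 array. PRA transgenic replicate 4 (blue crosses) is the lowest array for 29 genes, while PRA transgenic replicates 1 and 3 are the highest for 15 and 19.

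The arrays were then compared with each other. The median log2 ratio of the import genes was -0.14, -0.06 and -0.06 in the 3 wild-type glands and 0.09, 0.01, 0.16 and -0.30 in PRA transgenic replicates 1 to 4. PRA transgenic replicates 1 to 3 thus lay above, and replicate 4 below, all wild-type glands. The median over all genes ran only from 0.03 to 0.12 on these arrays. PRA transgenic replicate 4 was the lowest array for 29 of 39 import genes, although only 16.2% of all genes were lowest there, and it was below every wild-type array for 30 import genes, against 26.0% of all genes. PRA transgenic replicate 3 was the highest array for 19 import genes and replicate 1 for 15 (13.6% and 18.6% of all genes). For 14 import genes (35.9%) replicates 1 to 3 were all above every wild-type gland, against 10.5% of all genes, and in 11 of these 14 replicate 4 was not.

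**Figure D2:**
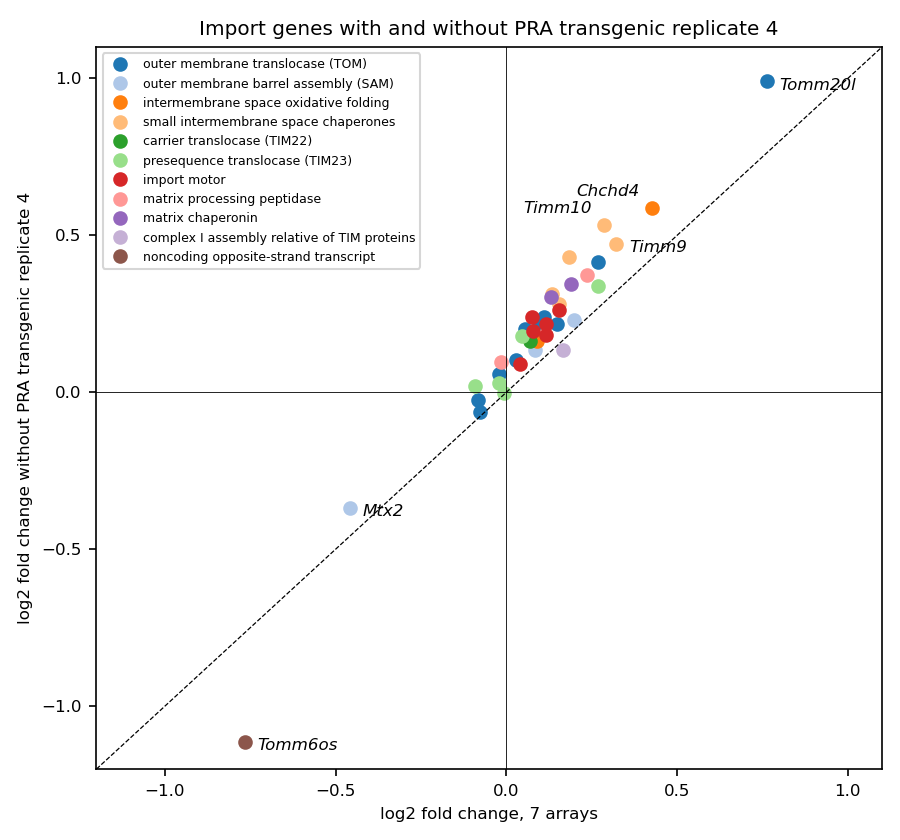
Log2 fold change of each import gene (points, coloured by role; PRA transgenic over wild-type) from all 7 arrays (x axis) and without PRA transgenic replicate 4 (y axis); the dashed line marks equal values. Most points lie above the line, with the median moving from 0.10 to 0.20.

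Timm9 codes for a small intermembrane space chaperone that works as a complex with the Timm10 protein. The study picked Timm9 from these same samples, so its direction is a description and not independent evidence. Probe A_52_P182520 read -1.03, -0.49 and -0.16 in wild-type and 0.17, 0.51, 0.65 and 0.09 in PRA transgenics. Probe A_55_P2935865, from the same set of cDNAs, read -1.04, -0.53 and -0.15 in wild-type and 0.38, 0.56, 0.78 and 0.01 in PRA transgenics. At both probes every PRA transgenic gland, replicate 4 included, was above every wild-type gland, and the wild-type glands themselves were widely spread. The log2 fold changes were 0.91 ± 0.24 (SE; unadjusted P = 0.00668, adjusted p = 0.405, limma) and 1.01 ± 0.26 (SE; unadjusted P = 0.00593, adjusted p = 0.405, limma). An exact two-sided permutation test, with 35 ways to divide the arrays, gave p = 0.0286 for each, the smallest value this design allows. That value follows largely from the separation just described, in a gene picked from these arrays, and adds no further support. The probes correlated at r = 0.99 and are not separate observations. The difference lay in the gland channel: Cy5 alone gave 0.76 and 0.96, and Cy3 alone -0.14 and -0.04. Without PRA transgenic replicate 4 the values were 1.00 and 1.15 (adjusted p = 0.298 and 0.278, limma), and over 16 alternatives the adjusted p ran up to 0.689 for each.

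The probes within the Timm9 RefSeq mRNA differed less between genotypes. A_51_P421804 read -0.82, -0.86 and -0.53 in wild-type and -0.55, -0.07, 0.00 and -0.93 in PRA transgenics. A_55_P2755119 at chr12:72224312-72224371, the brightest of the gene, read -0.56, -0.59 and -0.22 in wild-type and -0.17, 0.02, 0.20 and -0.59 in PRA transgenics. Here PRA transgenic replicate 4 was as low as the lowest wild-type glands, and the groups overlapped. The log2 fold changes were 0.35 ± 0.25 (SE; adjusted p = 0.726, limma) and 0.32 ± 0.21 (adjusted p = 0.703, limma), and 0.53 and 0.47 without replicate 4 (unadjusted P = 0.0338 and 0.0292, adjusted p = 0.372 and 0.362, limma). The cDNA probes followed each other over the 7 arrays with r = 0.99 and the mRNA probes with r = 0.97, whereas r between a cDNA probe and an mRNA probe was 0.76 to 0.85. The difference between the probe pairs was not itself tested. The remaining Timm9 probe, A_55_P2935046 at chr12:72231114-72231173, lay between the pairs and passed the background test on none of the arrays.

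**Figure D3:**
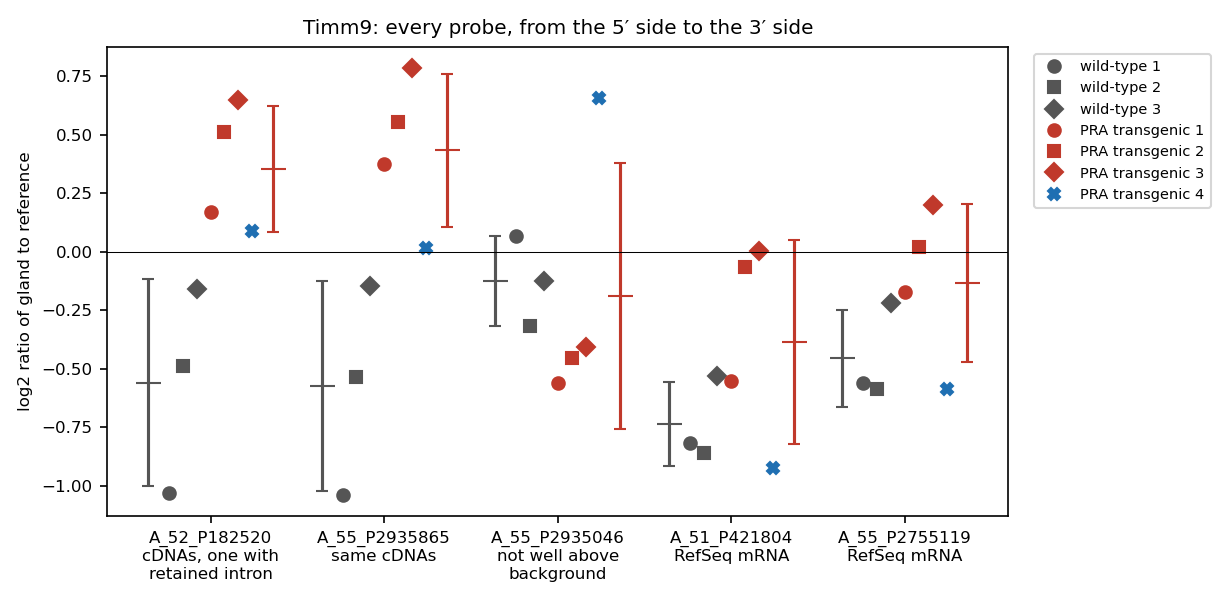
Log2 ratio of gland to reference (y axis) at each of the 5 Timm9 probes on the 7 arrays, in order along the transcribed strand; horizontal bars are genotype means and whiskers SD (n = 3 wild-type, n = 4 PRA transgenic). The genotypes are separate at A_52_P182520 and A_55_P2935865 and overlap at the other probes, of which A_55_P2935046 had no signal well above background.

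Among the small TIM chaperones, 6 of 6 genes had positive values, with a median of 0.17, or 0.37 without PRA transgenic replicate 4, although none reached the unadjusted threshold with all arrays. Timm10, the partner of Timm9, read 0.17, 0.08 and 0.18 in wild-type and 0.62, 0.57, 0.84 and -0.30 in PRA transgenics. Its first 3 PRA transgenic glands were clear of the wild-type range and replicate 4 fell below it. The log2 fold change was 0.29 ± 0.27 (SE; adjusted p = 0.801, limma) and 0.53 without replicate 4 (unadjusted P = 0.00585, adjusted p = 0.281). A second Timm10 probe, A_55_P1957004, moved the same way (0.24, and 0.46 without replicate 4). The Timm8-Timm13 chaperones escort other inner membrane proteins, and here Timm8a1 was 0.18, Timm8b 0.15 and Timm13 0.13 (0.43, 0.28 and 0.31 without replicate 4). Timm10b, which tethers the chaperones to TIM22, had the smallest value of the group at 0.07 (0.18 without replicate 4). The translocase gene Timm22 itself was also at 0.07, and at 0.16 without replicate 4.

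Both genes of the oxidative folding relay had positive values. Chchd4, the oxidoreductase that traps and folds small cysteine-rich proteins, read -0.94, -1.19 and -0.95 in wild-type and -0.54, -0.48, -0.30 and -1.07 in PRA transgenics. Its log2 fold change was 0.43 ± 0.20 (SE; unadjusted P = 0.0678, adjusted p = 0.589, limma), and 0.59 without replicate 4 (unadjusted P = 0.00512, adjusted p = 0.281). Gfer, the sulfhydryl oxidase that recharges Chchd4, was at 0.09 (0.16 without replicate 4), but at -0.04 in Cy5 alone. Across the 7 arrays, Pmpca (r = 0.96), Gfer (0.94), Chchd4 (0.93), Tomm5 (0.92) and Grpel2 (0.92) were the import genes whose brightest probe most resembled that of Timm9. These correlations describe 7 arrays that share replicate 4 as a low point.

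Of the 10 genes taken by a Tomm symbol, not counting Tomm6os, 7 were positive with a median of 0.08. Without replicate 4 it was 8 of 10 with a median of 0.21. Tomm40, the channel, was at 0.15 and its paralog Tomm40l at 0.27 (0.22 and 0.41 without replicate 4). The receptor Tomm20 read -0.61, -0.64 and -0.31 in wild-type and -0.32, -0.34, -0.30 and -0.91 in PRA transgenics, a log2 fold change of 0.05 (0.20 without replicate 4). Its other probes, A_66_P107768 and A_55_P2722842, gave 0.01 and -0.09 (0.12 and -0.06 without replicate 4). The receptors Tomm22 and Tomm70a were at -0.08 and -0.02 (-0.02 and 0.06 without it). Tomm20l, a paralog of Tomm20 that lies next to Timm9 in the RefSeq gene table, read -0.81, -0.81 and -0.79 in wild-type and 0.11, 0.12, 0.34 and -0.72 in PRA transgenics at its unmapped probe. The groups did not overlap, but replicate 4 was close to the wild-type level and the others were well above it. The log2 fold change was 0.76 ± 0.25 (SE; unadjusted P = 0.0181, adjusted p = 0.462, limma), and 0.99 ± 0.12 without replicate 4 (unadjusted P = 0.000175, adjusted p = 0.150, limma). Cy5 alone gave 0.39. The reference channel differed by -0.36 and was well above background on 4 of 7 arrays, 1 of them PRA transgenic, so the size of the ratio is uncertain. The probe within the Tomm20l RefSeq transcript had no usable signal.

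The barrel assembly genes went different ways. Samm50, the core of the SAM complex, was higher in all PRA transgenic glands than in any wild-type gland, narrowly, at 0.20 ± 0.13 (SE; adjusted p = 0.700, limma), and at 0.23 without replicate 4. Mtx1, a metaxin on the cytosolic face of the complex, was at 0.08 (0.13 without replicate 4). Its partner Mtx2 was the only gene below wild-type at the unadjusted threshold with all arrays. It read -0.03, 0.15 and 0.33 in wild-type and -0.12, -0.21, -0.33 and -0.58 in PRA transgenics, with all PRA transgenic glands below all wild-type glands. The log2 fold change was -0.46 ± 0.16 (SE; unadjusted P = 0.0214, adjusted p = 0.464, limma) and -0.37 without replicate 4. A second Mtx2 probe, A_55_P2740580, gave -0.37 with overlapping groups (unadjusted P = 0.112; -0.24 without replicate 4), and Cy5 alone gave -0.34 and -0.35 at the probes.

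The TIM23 translocase as a whole was near 0, with 2 of 5 genes positive and a median of -0.01 (4 of 5 and 0.03 without replicate 4). The channel genes Timm23, Timm17a and Timm17b were at 0.05, -0.09 and -0.02, and at 0.18, 0.02 and 0.03 without replicate 4. Timm21 was at -0.01, and at -0.0025 without it. Timm50 codes for the receptor that hands presequences from TOM to TIM23. Its brightest probe, A_52_P682990, read -0.10, -0.21 and -0.11 in wild-type and 0.23, 0.04, 0.34 and -0.08 in PRA transgenics. A_55_P2127692 read -0.13, -0.26 and -0.22 in wild-type and 0.25, 0.19, 0.53 and -0.13 in PRA transgenics. At both, replicate 4 lay just above the highest wild-type gland. The log2 fold changes were 0.27 ± 0.14 (SE; unadjusted P = 0.0883) and 0.42 ± 0.17 (unadjusted P = 0.0416, adjusted p = 0.534, limma), and 0.34 and 0.53 without replicate 4.

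In the matrix the differences were small. The import motor genes were positive in 6 of 6 cases with a median of 0.10, or 0.21 without replicate 4. Hspa9, the motor's Hsp70, was at 0.07 at its brightest probe (0.24 without replicate 4) and at 0.40 at A_52_P520687 (adjusted p = 0.634, limma), and the latter at 0.57 without replicate 4 (adjusted p = 0.294, limma). The nucleotide exchange factors Grpel1 and Grpel2 were at 0.15 and 0.12, and Timm44, which anchors Hspa9 to the channel, at 0.04. Without replicate 4 they were at 0.26, 0.18 and 0.09. Pmpca, the substrate-recognising subunit of the processing peptidase, was at 0.23 (0.37 without replicate 4, unadjusted P = 0.0216), whereas the catalytic partner Pmpcb was at -0.02 (0.10 without replicate 4). The chaperonin genes Hspd1 and Hspe1 were at 0.13 and 0.19, and at 0.30 and 0.35 without replicate 4. Hspe1 read -1.15, -1.08 and -0.92 in wild-type and -0.70, -0.79, -0.63 and -1.34 in PRA transgenics. Its 3 probes gave values of 0.16 to 0.19.

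**Figure D4:**
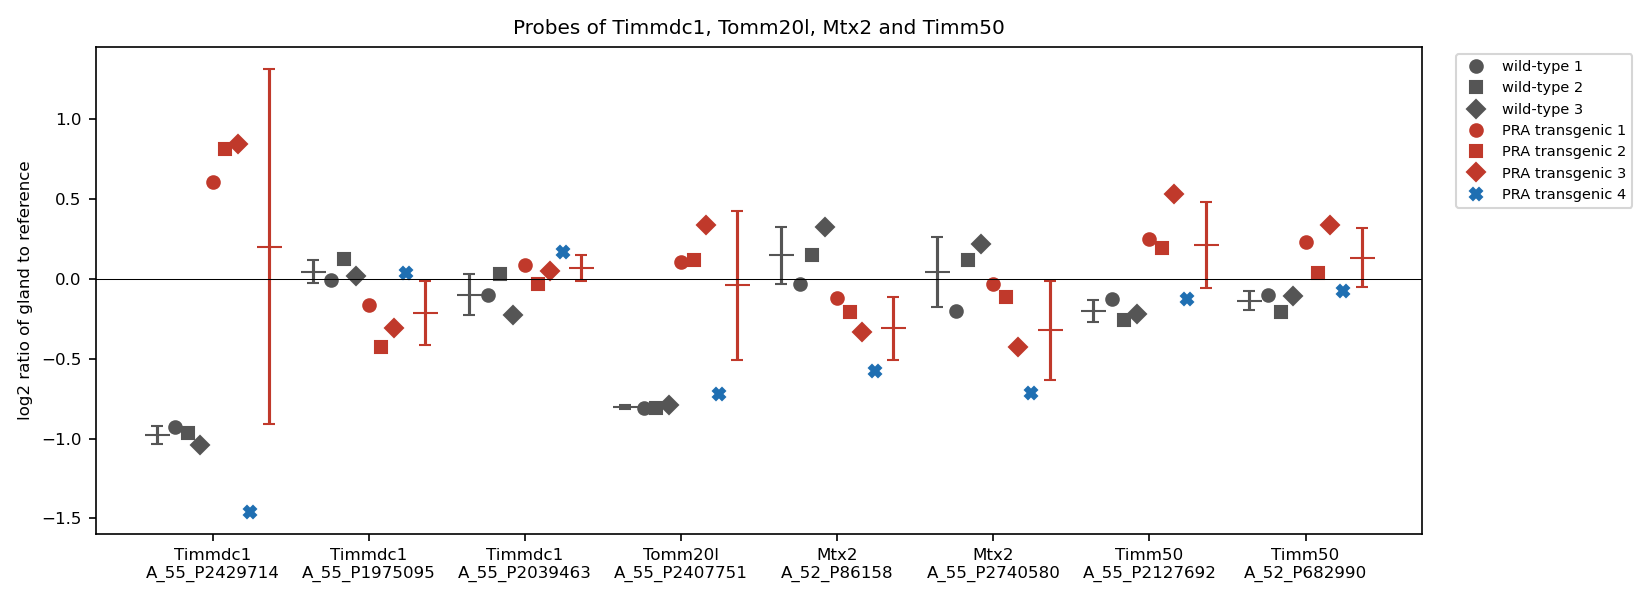
Log2 ratio of gland to reference (y axis) at single probes of Timmdc1, Tomm20l, Mtx2 and Timm50 on the 7 arrays; horizontal bars are genotype means and whiskers SD (n = 3 wild-type, n = 4 PRA transgenic). At Timmdc1 A_55_P2429714 PRA transgenic replicate 4 reads -1.46 against 0.61 to 0.84 for the other PRA transgenic glands, and at Mtx2 A_52_P86158 all PRA transgenic glands lie below all wild-type glands.

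Timmdc1, a relative of the TIM proteins that serves complex I assembly, showed the largest difference of any import probe and also the largest disagreement between its probes. The junction probe A_55_P2429714 read -0.93, -0.97 and -1.04 in wild-type and 0.61, 0.81, 0.84 and -1.46 in PRA transgenics. The first 3 PRA transgenic glands were thus far above every wild-type gland, and replicate 4 was below them all. The log2 fold change was 1.18 ± 0.56 (SE; unadjusted P = 0.071, adjusted p = 0.596, limma), and 1.73 ± 0.12 without replicate 4 (adjusted p = 0.0332, limma). Over 16 alternatives the adjusted p ran from that value to 0.868. Cy5 alone gave 1.18 and Cy3 alone 0.01. The probe was dim, although both channels were well above background on all 7 arrays. Its log2 Cy5 was 4.60 to 5.35 in wild-type, 6.42 to 6.61 in PRA transgenic replicates 1 to 3 and 4.57 in replicate 4. At A_55_P2039463 it was 10.05 to 10.56. The low readings thus lie at low intensity, which makes the size less certain. The other Timmdc1 probes did not share this pattern: A_55_P1975095, at the 3′ side, gave -0.26 (unadjusted P = 0.111) and A_55_P2039463, with the repeated bases shown above, 0.17. Without replicate 4 they gave -0.34 and 0.13. The accessions attached to A_55_P2039463 name 3 RefSeq genes, Timmdc1, Aqp7 and C5ar2, so that its signal cannot be assigned to Timmdc1.

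The opposite-strand transcript Tomm6os had log2 ratios of 2.63, 1.23 and 1.30 in wild-type and 0.53, 0.60, 0.69 and 2.01 in PRA transgenics. Its reference signal was well above background on 0 of 7 arrays, so the ratios and their difference (-0.76, or -1.11 without replicate 4) have no reliable size. With normexp background correction and loess the difference was -0.08. In Cy5 alone, where its signal was well above background on all 7 arrays, the genotypes differed by 0.17 (adjusted p = 0.862, limma). Tomm6 itself was at 0.10, and at 0.22 without replicate 4.

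Relative to the reference cell lines, import genes were not uniformly high or low. Of the 39 genes, 11 were above the reference on all 7 arrays, among them Timm23, Timm8b, Grpel1, Pam16 and Tomm7, and 14 were below it on all 7, among them Hspa9, Hspe1, Chchd4, Tomm20 and Tomm40. The other 14 were on both sides. The 11 include Tomm6os, which is not an import component and whose reference signal was at background, so its place is not reliable. These ratios compare each gene with its own level in the reference and do not rank genes against each other.

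Other mitochondrial gene groups were counted in the same fit at the unadjusted threshold of 0.05, with the brightest probe of each gene. Of 9 genes of the cristae organizing complex 1 passed (Dnajc11, 0.43) with a median of 0.11, and of 7 presequence peptidases and maturation enzymes 1 passed (Xpnpep3, 0.45) with a median of 0.16. None passed among 12 genes of inner membrane insertion and quality control (median 0.05), 12 of outer membrane insertion and import regulation (0.01) or 8 matrix proteases and folding factors (0.10). Of 13 nuclear regulators of mitochondrial genes 1 passed, Ppargc1b, a coactivator of mitochondrial biogenesis, at 0.54 ± 0.17 (SE; adjusted p = 0.454, limma), while the median of that list was -0.08. Of 15 cytosolic heat shock genes 3 passed, with Hsph1 (0.57) and Dnajb1 (0.43) higher and Dnaja2 (-0.34) lower, and the median was 0.23. All of these are to be read beside a median of 0.01 and 7.95% over all genes.

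The mitochondrial lists outside import shifted in the same direction when PRA transgenic replicate 4 was left out. The medians were then 0.21 for the cristae genes, of which Dnajc11 and Immt passed, 0.21 for the presequence peptidases, of which Xpnpep3 and Immp2l passed, 0.19 for the matrix proteases, 0.15 for inner membrane insertion and 0.07 for outer membrane insertion, with none passing in the last 3 lists. The import median of 0.20 lay within this range. The nuclear regulators were at -0.07, with Ppargc1b higher and Esrrg lower, and the heat shock list went down to 0.18, with Hsph1, Dnajb1 and Dnaja1 higher. Over all genes the median was 0.02 and 11.3% passed.

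**Figure D5:**
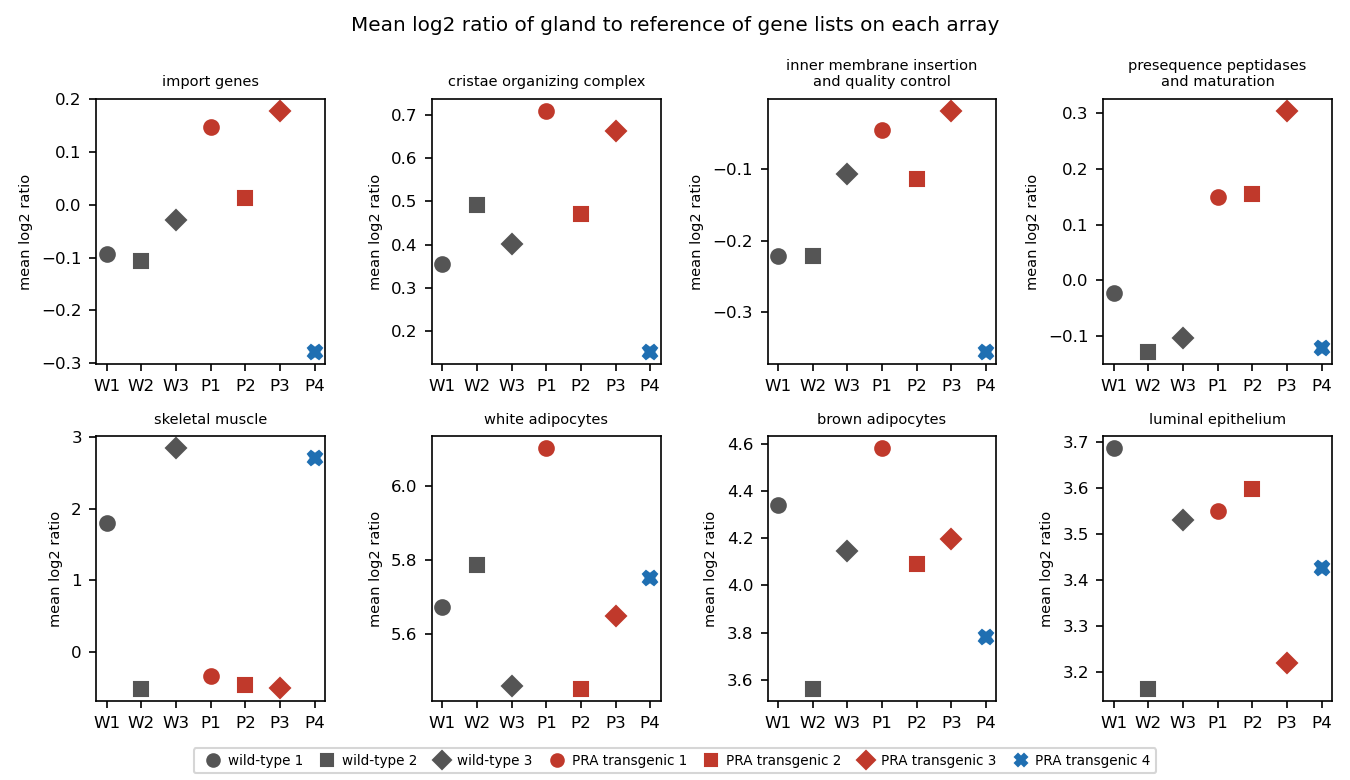
Mean log2 ratio of gland to reference (y axes, each panel on its own scale) of the import genes and 7 other gene lists on each array (W, wild-type; P, PRA transgenic; number, replicate). PRA transgenic replicate 4 is the lowest array for the import, cristae and inner membrane lists and high, with wild-type replicates 1 and 3, for skeletal muscle.

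Cell type markers also differed between arrays. The mean log2 ratio of 14 skeletal muscle genes was 1.80, -0.51 and 2.84 in wild-type and -0.33, -0.45, -0.49 and 2.70 in PRA transgenics. This mean was thus high in wild-type replicates 1 and 3 and PRA transgenic replicate 4. The median import log2 ratio on those 3 arrays was -0.14, -0.06 and -0.30. In wild-type replicate 2, where the muscle mean was the lowest of all arrays, it was also -0.06. In PRA transgenic replicates 1 to 3 it was 0.09, 0.01 and 0.16. Single muscle genes did not all follow the mean. In PRA transgenic replicate 4 Myh4 read -0.05, against 0.47 in replicate 3, and Mb read 3.38, against 4.83 in replicate 2. With the muscle mean as a covariate the import median went from 0.10 to 0.03, where the median over all genes was 0.01. The sign turned for 8 genes (Hspa9, Timm10b, Tomm20, Dnajc19, Timm23, Tomm6, Hspd1 and Tomm7). Of 71 import probes 5 passed the unadjusted threshold, against 7.11% of all probes. The fibroblast list was also highest in PRA transgenic replicate 4 among its group (2.98 against 2.49 to 2.51) and was 2.51 to 3.00 in wild-type. The macrophage mean was highest of all arrays in PRA transgenic replicate 4, at 3.82, against 3.13 to 3.40 in the other PRA transgenics and 3.19 to 3.45 in wild-type. Its genes did not all follow the mean. Cd68, Csf1r, Lyz2 and Adgre1 were highest there. C1qa and Cd163 were at their lowest among PRA transgenics, at 4.77 and 4.89, and Mrc1 and C1qb were higher in PRA transgenic replicate 2. The part of fibroblast and macrophage RNA in the low import values of that array was not tested. White adipocyte means were 5.46 to 5.78 in wild-type and 5.45 to 6.10 in PRA transgenics, and brown adipocyte means 3.56 to 4.34 and 3.78 to 4.58, so both overlapped. Wild-type replicate 1 had the highest T cell and B cell means, 2.05 and 1.58, against at most 0.41 and -0.52 on the other arrays.

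The promoters of the import genes shared sequence features independent of the arrays. RefSeq promoter windows of GRCm38.p6, from 250 bases before to 50 after the start, were found for 35 of the 40 gene names (38 windows). CCGGAAG, the core bound by ETS factors such as GABP (NRF-2), was present on either strand in 17 of 38 windows (44.7%), against 8.86% of all 32851 windows. TGCGCA, part of the NRF1 site, was in 6 (15.8%, against 7.76%). The heat shock pair TTCNNGAA was in 9 (23.7%, against 8.52%) and GAANNTTC in 3 (7.89%, against 7.86%). These windows were also richer in G and C, with a median of 60% against 52.7%, and held a median of 20 CpG against 7. A match of letters is a description and not evidence of binding, and the windows of Hspd1 and Hspe1 overlap.

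Hspd1 and Hspe1 start back to back and share a promoter, which held the ETS core on both strands and both heat shock pairs. The stretch between their starts, at chr1:55087933-55088147 (GRCm38.p6, plus strand), is given with the overlapping heat shock pairs in capitals, which the ETS cores overlap. Their transcripts were at 0.13 and 0.19 (above), neither past the unadjusted threshold with all arrays.
Hspd1-Hspe1 shared promoter: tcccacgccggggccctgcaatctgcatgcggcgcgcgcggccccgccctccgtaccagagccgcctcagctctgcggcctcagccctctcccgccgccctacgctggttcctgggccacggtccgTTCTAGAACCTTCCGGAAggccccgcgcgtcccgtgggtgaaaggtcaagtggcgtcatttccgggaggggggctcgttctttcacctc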

How the data were processed

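Gland RNA (Cy5) of 3 wild-type and 4 PRA transgenic mice, separate animals, was hybridised with reference RNA (Cy3) on 7 Agilent arrays without dye swap. The authors deposited scanner files from Agilent Feature Extraction 12.0, with each intensity already background-subtracted and dye-normalized, and a series table of log2 ratios, 99.9% of whose values lay within 0.01 of the scanner ratios after centring each probe on its median over the arrays. Here log2(Cy5/Cy3) was taken without control and outlier spots, spots of a probe were averaged, and 34284 probes whose Cy5 was well above background throughout either genotype were fitted with limma 3.58.1 in R 4.3.3 (lmFit, eBayes), with Benjamini-Hochberg adjustment over all of them. A gene was represented by its probe brightest in Cy5. Cy5 alone was centred on the 75th percentile of each array. Members and lists were chosen with earlier results of these data known. Named were all Timm9 probes, paralog pairs, the extremes of each role, and probes past the unadjusted threshold. Probe positions are on mm9. In simulated data on 34284 probes, changes of 1 were found at an adjusted p under 0.05 for 24 of 100 probes and changes of 2 for 70 of 100. The number of arrays limits the precision. Alternatives were other background correction, normalization, filters and tables, the methods' t-test, a replicate block, a muscle covariate and each array left out.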

Additional observations from a re-analysis of the deposited data

Results flagged for a closer look

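In groups of 4 PRA transgenic arrays, an array was marked where its gap to the nearest other array exceeded Dixon's critical share of the group's range, and 10 of 90 groups examined were marked, where chance gives about 4.5. The groups were read in the same 4 animals, and some are probes of the same gene. They are thus not independent, and the count does not measure an excess over chance. PRA transgenic replicate 4 was the array apart at Tomm20 probes A_55_P2041017 (0.926 of the range) and A_66_P107768 (0.928), Timmdc1 probe A_55_P2429714 (0.899), Dnajc19 probe A_55_P2028248 (0.838) and Tomm6os probe A_66_P127762 (0.894). The marked Tomm20 probes overlap in position and are not separate observations. At the remaining Tomm20 probe, A_55_P2722842, PRA transgenic replicate 4 read -1.24, against -1.23 in replicate 3. PRA transgenic replicate 4 was low at the marked Tomm20, Timmdc1 and Dnajc19 probes and high at Tomm6os, whose reference signal was well above background on none of the arrays. It was also the array apart, and high, in the means of the fibroblast list (0.959) and the skeletal muscle list (0.95). PRA transgenic replicate 3 stood apart at Timm10b probe A_55_P2166685 (0.902), where it read 1.35 against 0.43 to 0.52. PRA transgenic replicate 2 was low at Pam16 probe A_66_P133845 (0.911), 0.09 against 0.51 to 0.55, and in the endothelium list (0.892). At these Timm10b and Pam16 probes the reference was well above background on none of the PRA transgenic arrays, so the ratios rest on a reference signal at background.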

How the results depend on the processing

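The 7 arrays limit what can be called: the count of import probes at an unadjusted P under 0.05 ran from 3 to 18 when arrays were left out in turn. It was 3 without wild-type replicate 2 or 3 (7.35% and 7.48% of all probes) and 18 without PRA transgenic replicate 4 (12.3% of all probes). The count at an adjusted p under 0.05 ran from 0 to 1 (0.035% of all probes without PRA transgenic replicate 4). With the replicate number as a block, which leaves PRA transgenic replicate 4 in a block of its own, the unadjusted count was 14 (9.83% of all probes). Deviations of same-numbered arrays correlated at 0.10, -0.30 and 0.04, so the numbers were not taken as pairs. The median log2 fold change stayed positive throughout (0.04 to 0.20 with arrays left out, 0.03 with the muscle covariate, 0.20 with the block, and 0.14 with quantile normalization, where the median over all genes was 0.05). For single probes and genes, 406 of 423 values under other settings kept their direction and, where tested, their side of the adjusted threshold of 0.05. Part of this was fixed in advance. The series table, the filters on dim probes and the methods' t-test rest on the same ratios, so the direction of a probe could not turn there. The replicate block gives the same log2 fold changes as leaving out PRA transgenic replicate 4. The unadjusted threshold of 0.05 was crossed by 14 of 403 tested values, 7 of them with the replicate block (Chchd4, Mtx2, Timm10, Tomm6os, Timmdc1 A_55_P2429714 and the Timm9 mRNA probes) and 3 in Cy5 alone (Chchd4, Mtx2 and Timmdc1 A_55_P1975095), and by 18 of 315 with an array left out. Signs turned in Cy5 alone for Tomm6os (0.17) and Gfer (-0.037), with quantile normalization for Timm21 (0.076), Timm17b (0.017) and Pmpcb (0.059), and with the replicate block for Tomm70a (0.059), Timm17b (0.031), Timm17a (0.021) and Pmpcb (0.096). With the muscle covariate they turned for Hspa9 (-0.054), Timm10b (-0.0068), Tomm20 (-0.013), Dnajc19 (-0.022), Timm23 (-0.081), Tomm6 (-0.0052), Hspd1 (-0.014) and Tomm7 (-0.052). With arrays left out, the ranges were -0.087 to 0.059 for Tomm70a, -0.048 to 0.044 for Timm21, -0.0049 to 0.43 for Timm8a1, -0.12 to 0.031 for Timm17b, -0.019 to 0.24 for Hspa9, -0.029 to 0.18 for Timm10b, -0.20 to 0.021 for Timm17a, -0.0064 to 0.20 for Tomm20, -0.0081 to 0.20 for Dnajc19, -0.047 to 0.18 for Timm23, -0.12 to 0.096 for Pmpcb, -0.0067 to 0.22 for Tomm6 and -0.062 to 0.10 for Tomm7. The cause was not tested.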
